A study of Setaria viridis with 13 samples.

Results

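In green millet, the small C4 grass Setaria viridis, the bulk shoot of the reproductive stage held 343 genes that stood at least 3 times above the young bulk shoot and also above both panicle samples. They were chosen by their measured values. A gene was taken when its level in the reproductive-stage shoot (R shoot) was at least 5 FPKM (sequenced fragments for each kilobase of a transcript, relative to the sample's total), at least 3 times the level in the V3 bulk shoot, and higher than in the panicle before and the panicle after anthesis. The first 2 conditions were met by 812 of the 35471 genes in the table (2.29% of all genes), and the condition on the panicles left 343 of them (42.2%). The other 469 had a panicle at or above the R shoot. These 4 samples made the choice, so levels in them are a description and support nothing, and the other 9 samples were not used by the rule.

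All plants were wild type of accession A10, grown in hydroponics with no treatment named. The R shoots were bulk shoots at 20 days after germination. The panicles were taken at 25 days (after anthesis) and 22 days (before it), and the V3 bulk shoot at 10 days. Outside the rule were the bulk root, the inflorescence meristem and the V5 bulk shoot at 15 days, the vegetative meristem and 4 parts of leaf 3 (tip, mid section, base and lower section) at 10 days, and the coleoptile, the sheath of the emerging shoot, at 3 days. Behind each sample were 3 biological replicates, which the authors merged into 1 column, so no value has a replicate error, no difference was tested between samples, and sequencing depth is unknown. Stage, age and the mix of organs in a bulk shoot differ together between the R and V3 shoots and cannot be told apart, and whether panicle tissue or stems were part of the R shoot is not given in the sources used here.

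When a grass turns to flowering, the shoot apex changes from making leaves to making an inflorescence, stem internodes lengthen from dividing zones near their bases, and older leaves begin to export their nutrients. A bulk shoot at that stage can therefore hold stem, leaf sheath, mature blade and apex, while the panicle is the branched inflorescence itself. The files and the gene table used here do not pair the gene IDs with names, so genes are given by ID, no function is given to any of them, and tissue labels could not be checked against marker genes.

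Most of the 343 genes were of moderate level and close to the threshold. Their FPKM in the R shoot ran from 5.02 to 1096, with a median of 11.5 and quartiles of 7.46 and 25.5. It was under 10 in 148 genes and at least 100 in 10. The ratio of R to V3 shoot had a median of 3.54 over the 341 genes with a value above 0 at V3. It was under 4 in 223 genes and at least 10 in 27, of which 13 were highest in a meristem among the samples outside the rule. The other 2 genes, Si016022m.g (8.51 FPKM in the R shoot) and Si026716m.g (5.02), were listed at 0 at V3 and have no ratio. The ratio of the R shoot to the higher panicle had a median of 1.58, and was at least 1.5 in 192 genes and at least 3 in 71. The higher panicle was the post-anthesis one for 233 genes and the pre-anthesis one for 99.

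Just inside the level threshold were Si002349m.g, Si022922m.g and Si026716m.g, all at 5.02 FPKM in the R shoot, and just outside it was Si017774m.g at 4.98. Just inside the 3-fold threshold was Si018800m.g, with 8.92 FPKM in the R shoot against 2.97 at V3, and just outside was Si013362m.g, with 12.8 against 4.28. Just inside the panicle condition was Si002583m.g, with 17.5 FPKM in the R shoot and 17.4 in the higher panicle. Si003268m.g, at 7.34 in both, was just outside. At each edge the genes inside and outside had nearly the same values.

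**Figure D1:**
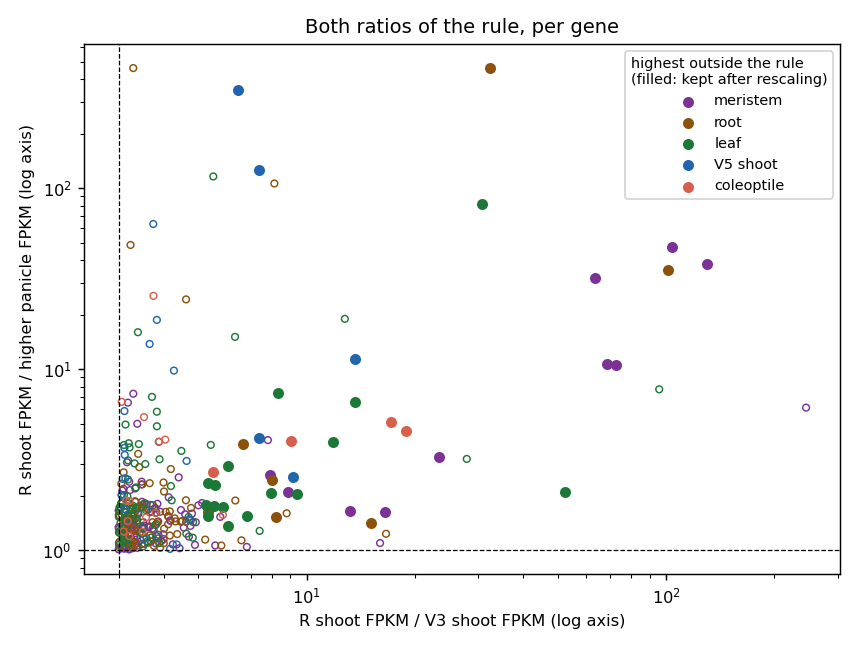
Ratio of R shoot to V3 shoot FPKM (x) against ratio of R shoot to the higher panicle FPKM (y), both on log axes, for 336 genes, coloured by the tissue of the highest sample outside the rule. The dashed lines are the thresholds of 3 and 1, filled points are genes that still passed the rule after median-ratio rescaling, and 7 genes with a value of 0 at V3 or in both panicles are not drawn. Most genes crowd into the corner near both thresholds.

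The scale of the R shoot bears on this choice. Over 9792 widely expressed genes the R shoot lay 0.78 higher than the V3 shoot on the log2 scale (1.72-fold), 0.38 higher than the post-anthesis and 0.41 higher than the pre-anthesis panicle. As deposited 812 genes passed a 3-fold ratio upward in the R shoot and 51 downward (0.144% of all genes), so that 94.1% were higher, and after median-ratio rescaling 195 passed upward and 253 downward (43.5% higher). Relative to the shift the median log2 ratio of the 343 genes to the V3 shoot was 1.04, against 1.82 as deposited. After rescaling all 343 stayed above the V3 shoot, which the rule fixed in advance, since a 3-fold ratio exceeds the 1.72-fold shift. Above both panicles 245 stayed, but only 48 still met the whole rule. Of the 27 genes at 10 times V3 or more, 21 did.

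The most abundant of the 343 genes was Si020878m.g, a gene abundant in leaf 3, at 1096 FPKM in the R shoot, 68.6 and 62.1 in the post- and pre-anthesis panicle and 323 in the V3 shoot. The V5 shoot had 518, and in leaf 3 the tip had 941, the mid section 436, the base 652 and the lower section 1096. It was at 31.2 and 51.0 in the inflorescence and vegetative meristem, at 146 in the coleoptile and at 2.20 in the root. Its lower leaf section had the same listed value as the R shoot, so the R shoot was not its single highest sample. After rescaling its ratio to the V3 shoot was 1.97, under the threshold.

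Si034631m.g was next, with 540 FPKM in the R shoot, against 136 in the panicle after and 59.5 in the panicle before anthesis, and 45.5 in the V3 shoot. It was at 61.2 in the V5 shoot, at 33.5 to 96.0 in the 4 leaf parts, at 42.7 in the coleoptile, at 21.8 and 15.8 in the inflorescence and vegetative meristem and at 0.0497 in the root. The R shoot was thus 3.97 times its next sample. Its ratio to V3 was 11.9 as deposited and 6.89 after rescaling.

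Si030279m.g had 439 FPKM in the R shoot, 114 and 56.3 in the post- and pre-anthesis panicle and 65.7 in the V3 shoot, with 151 in the V5 shoot and 178 in the root. Unlike the 2 genes before it, it was well above 0 in the root. Si003278m.g had 231 in the R shoot, 149 and 28.7 in the post- and pre-anthesis panicle and 43.6 in the V3 shoot, with 111 in the leaf tip and 0.240 in the root. It was highest in the R shoot, with the post-anthesis panicle next. The other 6 genes at 100 FPKM or more ran from 101 (Si017829m.g) to 171 (Si019605m.g). Together the 343 genes made up 1.47% of the summed FPKM of genes in the R shoot, 0.587% and 0.443% in the post- and pre-anthesis panicle and 0.329% in the V3 shoot. Outside the rule their share was highest in the root (1.41%), where 4 genes held 51.1% of it. In these bulk samples a higher share of cells of a type and more RNA per cell cannot be told apart.

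The R shoot was the single highest of all 13 samples for 187 of the 343 genes (54.5%). The rule already placed 3 samples below it. Among 6247 other genes at 5 FPKM or more that were above the V3 shoot and both panicles without reaching the 3-fold ratio, it was the highest for 24.0%. The 3-fold condition itself favours genes with a high R shoot value, so nothing is read from the difference between these shares. For 70 of the 343 the highest sample was the root, for 27 the inflorescence meristem, for 23 the vegetative meristem, for 29 a part of leaf 3 (13 mid section, 8 lower section, 7 tip, 1 base) and for 7 the coleoptile. In 3 of these genes the R shoot was tied with the sample counted. The rule kept the V3 shoot and both panicles from being the highest. This split by highest sample was not taken over all genes at 5 FPKM or more in the R shoot, so nothing is read from it. After rescaling the R shoot was the highest for 80.

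**Figure D2:**
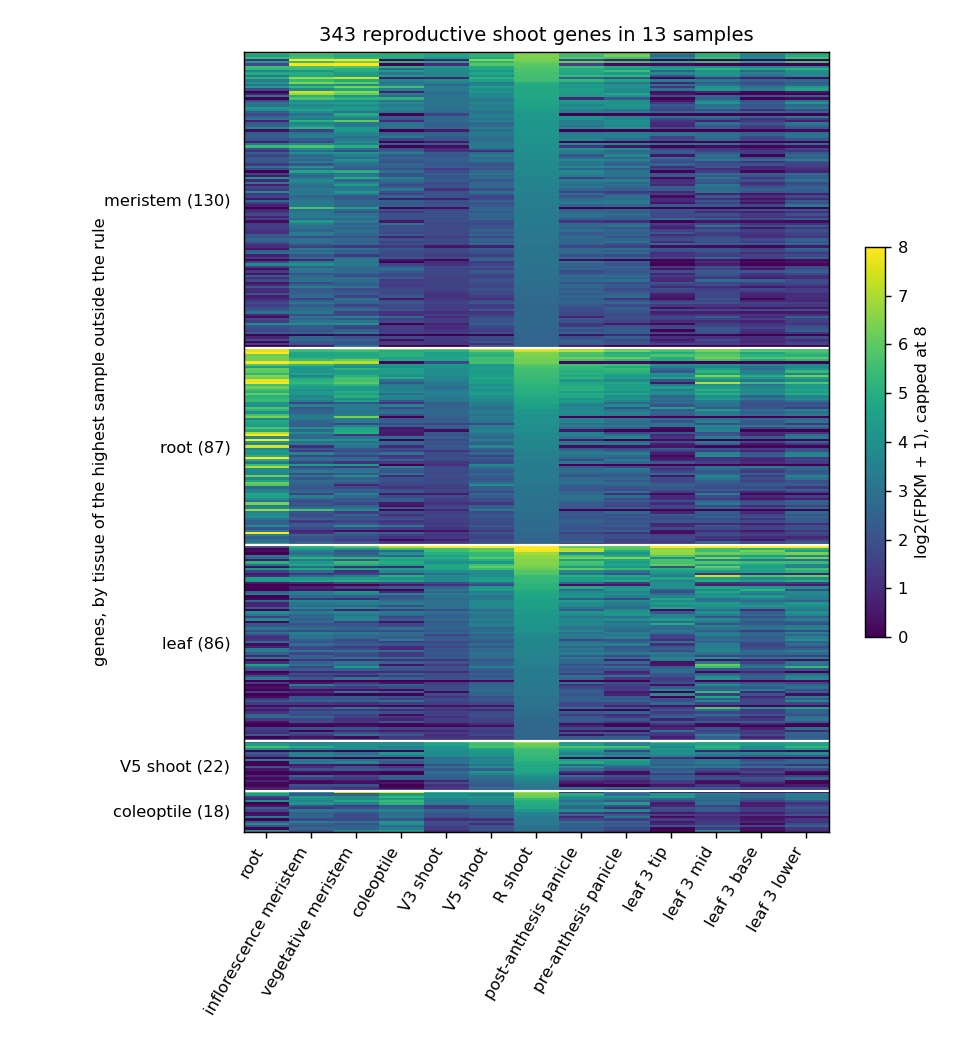
Level of the 343 genes (rows) in the 13 samples (columns) as log2(FPKM + 1), with colours capped at 8. Rows are grouped by the tissue of the highest of the 9 samples outside the rule and ordered by R shoot level within a group. The R shoot column is at 5 FPKM or more throughout by the rule and dims down each group. The meristem, root and leaf groups differ in which further columns are bright.

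Few genes were nearly restricted to the R shoot. In 13 of the 343 its FPKM was at least 3 times that of each of the other 12 samples, and in 32 at least 2 times. Over all 11365 genes at 5 FPKM or more in the R shoot the 3-fold count was also 13. Any such gene meets the rule by definition, so the 13 are all of that kind in these data. Of the 13, 8 still met the whole rule after rescaling. The 5 most abundant were Si034631m.g, described above, Si001397m.g, Si013512m.g, Si002151m.g and Si000258m.g. Si001397m.g had 55.5 FPKM in the R shoot, 7.51 and 2.92 in the post- and pre-anthesis panicle and 6.67 in the V3 shoot, with 13.0 in the V5 shoot and 13.4 in the leaf tip. The mid section, base and lower section of the leaf were at 1.14, 1.06 and 0.670.

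Si013512m.g was a shoot gene almost without signal elsewhere. It had 5.96, 8.58 and 38.4 FPKM in the V3, V5 and R shoots, against at most 0.110 in a panicle, 1.25 in the leaf tip and at most 0.125 in the other 7 samples. Each bulk shoot was thus higher than every dissected part of the plant. Si002151m.g had 27.1 in the R shoot, against 5.92 and 2.89 in the post- and pre-anthesis panicle and 1.43 in the V3 shoot, and no other sample was above 3.50. Si000258m.g had 26.3 in the R shoot, 6.31 and 3.00 in the post- and pre-anthesis panicle and 3.56 in the V3 shoot, with 0.357 to 4.62 in the other 9. Under 1 FPKM in all other 12 samples were 2 genes, Si031919m.g (5.15 in the R shoot) and Si003039m.g (5.45), both named after their values were seen. Both were under 5 FPKM after rescaling.

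**Figure D3:**
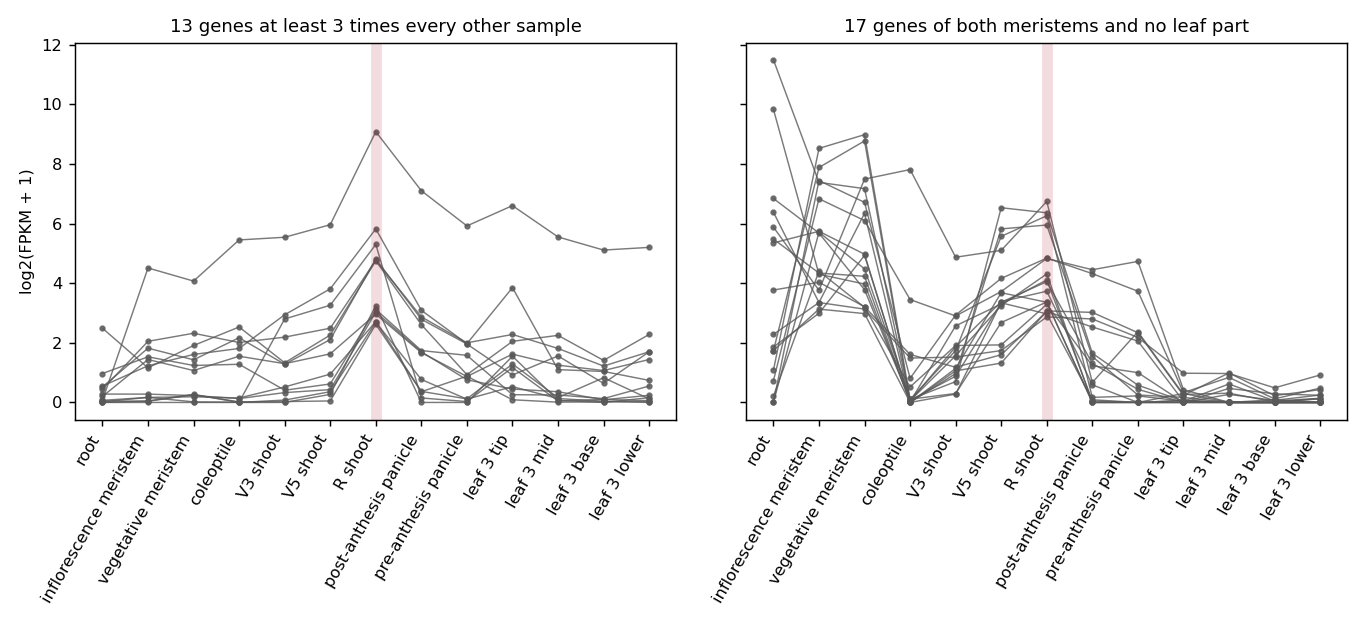
log2(FPKM + 1) by sample, 1 line per gene, with the R shoot shaded. The left panel holds the 13 genes at least 3 times above every other sample and the right panel the 17 genes at 5 FPKM or more in both meristems and under 1 in every leaf part, several of which fall near 0 in the panicles. Lines join the values of 1 gene and the samples have no order between organs.

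By the highest of the 9 samples outside the rule, 130 of the 343 genes (37.9%) were meristem genes, 87 (25.4%) root genes, 86 (25.1%) leaf genes, 22 (6.41%) V5 shoot genes and 18 (5.25%) coleoptile genes. Over all 11365 genes at 5 FPKM or more in the R shoot the shares were 41.8% meristem, 18.1% root, 30.6% leaf, 3.96% V5 shoot and 5.62% coleoptile. Among the 469 other raised genes they were 40.1%, 24.9%, 27.3%, 1.71% and 5.97% in the same order. As deposited, root and V5 shoot genes made up a larger share of the 343 than of the 11365 and leaf genes a smaller one. V5 shoot genes also made up a larger share than among the other raised genes. The rule chose on the V3 and R shoots, and the leaf parts had the same age as the V3 shoot. The rule itself can therefore shift these shares. These differences were not tested and nothing is read from them. The split depended on the scale, since rescaling gave 79 meristem, 105 root, 116 leaf, 18 V5 shoot and 25 coleoptile genes. The shares of the 11365 and of the other raised genes were not taken on that scale.

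On the log2(FPKM + 1) scale the 3 largest differences over the V3 shoot belonged to genes of the meristem group. Si011432m.g had 0.625, 91.4 and 81.1 FPKM in the V3, V5 and R shoots, with 2.14 and 0.495 in the post- and pre-anthesis panicle. It was at 366 in the inflorescence and 504 in the vegetative meristem, at most 0.0644 in the leaf parts, and at 0.0718 in the coleoptile and 1.11 in the root. Its log2(FPKM + 1) was 5.66 higher in the R than in the V3 shoot, the largest such difference of the 343. Si011450m.g had the same shape, with 0.959, 55.5 and 60.8 in the V3, V5 and R shoots, 1.91 and 0.189 in the post- and pre-anthesis panicle, 235 and 436 in the inflorescence and vegetative meristem, at most 0.125 in the leaf parts and 2.32 in the root. In both genes the V5 shoot was already at the level of the R shoot.

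Si011453m.g joined these with 0.670, 34.8 and 45.9 FPKM in the V3, V5 and R shoots, 4.31 and 2.84 in the post- and pre-anthesis panicle and 110 and 178 in the inflorescence and vegetative meristem, and it was also at 34.0 in the root. All 3 still met the rule after rescaling, at 75.5, 36.9 and 39.7 times V3 in the order given. Si003612m.g, the fourth of the group by level in a meristem, was different. It had 27.6 in the R shoot, 19.0 and 12.3 in the post- and pre-anthesis panicle and 6.62 in the V3 shoot, with 173 and 104 in the inflorescence and vegetative meristem and a listed 0 in the root. It was well above 0 in both panicles, and its ratio to V3 was 4.17 as deposited and 2.43 after rescaling.

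In the whole meristem group of 130 genes, a meristem was above the R shoot for 48 and both were for 19. The inflorescence meristem was the higher of the meristems for 78 genes and the vegetative one for 52. These counts were not taken over the 11365 genes at 5 FPKM or more in the R shoot. There the median log2(FPKM + 1) was also higher in the inflorescence than the vegetative meristem, by a median difference of 0.11. Nothing is therefore read from the counts in this group. The group's medians were 9.85 FPKM in the R shoot, 5.41 and 5.32 in the post- and pre-anthesis panicle and 2.46 in the V3 shoot, with 7.40 and 7.11 in the inflorescence and vegetative meristem. The leaf parts had medians of 1.47 to 2.99. Only 14 of the 130 still met the rule after rescaling.

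A narrower pattern was defined after the values were seen and has no test. In 17 of the 343 genes (4.96%) both meristems were at 5 FPKM or more and all 4 leaf parts under 1. The same held for 180 of the 11365 genes at 5 FPKM or more in the R shoot (1.58%) and for 13 of the 469 other raised genes (2.77%). Among the 17, both panicles were at or under the R shoot level divided by 3 in 12 genes, beside 71 of all 343. The rule already held both panicles under the R shoot. Both meristems were above the R shoot in 12. Neither of these 2 counts was taken over the 11365 genes. The root was at 5 FPKM or more in 8, beside 149 of the 343 and 6722 of the 11365. Nothing is read from these counts. The 17 had medians of 1.87, 9.27 and 15.6 in the V3, V5 and R shoots, of 1.35 and 0.357 in the post- and pre-anthesis panicle, and of 20.1 and 29.5 in the inflorescence and vegetative meristem. After rescaling 7 of the 17 met the rule.

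The root group held 87 genes with a median of 11.6 FPKM in the R shoot, 6.57 and 5.73 in the post- and pre-anthesis panicle and 2.81 in the V3 shoot, and of 27.8 in the root. The root was above the R shoot by 3 times or more in 22 of them. The group was formed by the root being the highest sample outside the rule. This count was not taken over all genes at 5 FPKM or more in the R shoot, so nothing is read from it. Si011513m.g had 2.34, 46.5 and 75.6 FPKM in the V3, V5 and R shoots. It was at 0.125 and 0.165 in the post- and pre-anthesis panicle, at 166 and 143 in the inflorescence and vegetative meristem and at most 0.0281 in the leaf parts, but 2875 in the root. The R shoot was thus far under the root and far over the panicles, and the gene had the largest log2 difference over the higher panicle of the 343 (6.04). Si027144m.g had 13.2 in the R shoot, 10.8 and 6.67 in the post- and pre-anthesis panicle and 3.03 in the V3 shoot, but 1628 in the root. The third, Si011488m.g, had 12.3 in the R shoot, 0.505 and a listed 0 in the post- and pre-anthesis panicle and 2.66 in the V3 shoot, with 909 in the root. Of these 3, Si011513m.g alone met the rule after rescaling.

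The leaf group held 86 genes, of which the mid section was highest for 32, the tip for 31, the lower section for 20 and the base for 3. A leaf part was above the R shoot in 28. The group was formed by a leaf part being the highest sample outside the rule. The count of 28 was not taken over all genes at 5 FPKM or more in the R shoot, so nothing is read from it. The group's medians were 11.9 FPKM in the R shoot, 6.73 and 5.30 in the post- and pre-anthesis panicle and 3.23 in the V3 shoot. Si006468m.g had 34.8 in the R shoot, 0.197 and 0.424 in the post- and pre-anthesis panicle and 1.13 in the V3 shoot. It was at 15.9 in the leaf tip and at most 0.905 in the other leaf parts, with 2.39 in the V5 shoot, 0.0281 in the inflorescence meristem and a listed 0 in the vegetative meristem and in the root. Within the leaf it was a gene of the tip. Si013564m.g had 42.4 in the R shoot, 34.5 and 27.1 in the post- and pre-anthesis panicle and 12.2 in the V3 shoot, with 8.78 in the leaf tip and 167 in the mid section. It missed the rule after rescaling, while Si006468m.g met it.

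In the V5 shoot group of 22 genes the R shoot was the highest sample for all 22, at 1.07 to 5.69 times the V5 shoot. By the grouping, the V5 shoot was their highest sample outside the rule. The rule itself held the V3 shoot and both panicles under the R shoot. The R shoot was therefore the highest in this group wherever it exceeded the V5 shoot. It did so in all but 6 of the genes that met the rule, so nothing is read from this count. The group's median was 27.8 FPKM in the R shoot, 6.27 in the V3 shoot and 0.555 in the root. Si022681m.g had 30.1, 52.1 and 129 in the V3, V5 and R shoots, 13.1 and 7.94 in the post- and pre-anthesis panicle, 44.9 in the leaf tip and 4.31 in the root. In the coleoptile group of 18 genes the coleoptile was above the R shoot for 7. The coleoptile being the highest sample outside the rule had formed this group. The count of 7 was not taken over all genes at 5 FPKM or more in the R shoot, so nothing is read from it. Si006800m.g had 106 in the R shoot, 0.591 and 4.17 in the post- and pre-anthesis panicle, 28.2 in the V3 shoot, with 223 in the coleoptile, 12.5 in the inflorescence and 179 in the vegetative meristem, 57.9 in the root and at most 0.240 in the leaf parts. Si016787m.g had 34.3 in the R shoot, 6.31 and 3.56 in the post- and pre-anthesis panicle and 9.70 in the V3 shoot, with 39.8 in the coleoptile.

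Between the V3 and R shoots the V5 shoot was in between for 318 of the 343 genes (92.7%), against 62.4% of the 11365 genes at 5 FPKM or more in the R shoot and 85.7% of the other raised genes. The medians were 2.86, 5.36 and 11.5 FPKM at V3, V5 and R. The V5 shoot was at or under V3 in 19 genes and at or over R in 6. The R shoot was at least 3 times the V5 shoot in 76 genes, while 3.68% of the 11365 were. The V5 shoot was at least 3 times the V3 shoot at 5 FPKM or more in 25 genes (0.352% of the 11365) and the reverse in 0 (0.167%). These comparisons share the R or the V3 shoot with the rule, so nothing is read from them.

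**Figure D4:**
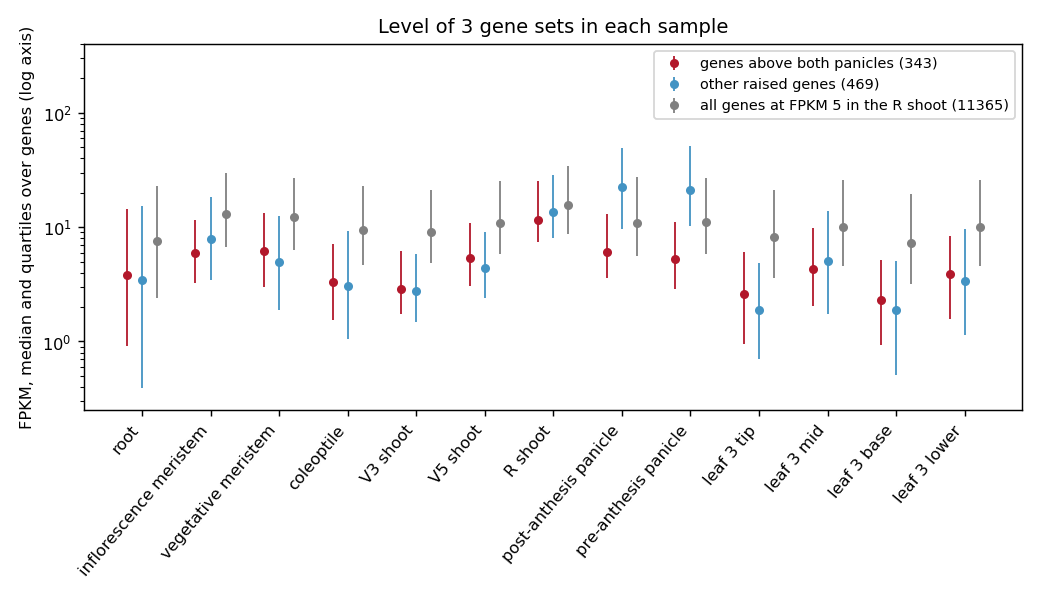
Median and quartiles of FPKM over genes (log axis) in each sample for the 343 genes above both panicles, the 469 other raised genes and all 11365 genes at 5 FPKM or more in the R shoot. The 343 genes have medians of 6.06 and 5.28 in the post- and pre-anthesis panicle, where the other raised genes have 22.3 and 21.0. The first 2 sets are close in the V3 shoot and the root.

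The 343 genes were compared with the other 469 raised genes in samples that the rule did not use. A gene was called when the higher sample was at 5 FPKM or more and at least 3 times the other. Between the inflorescence meristem and the V5 shoot, 28 of the 343 (8.16%) were higher in the meristem and 34 (9.91%) lower, beside 25.2% and 2.99% of the other raised genes and 11.5% and 11.0% of the 11365. Rescaling gave 18 higher and 42 lower. Between the inflorescence and the vegetative meristem, 7 (2.04%) were higher in the inflorescence meristem and 20 (5.83%) lower, beside 15.1% and 2.13% of the other raised genes and 2.44% and 1.93% of the 11365. Rescaling gave 3 higher and 19 lower. In both comparisons the share of the 343 genes called higher in the inflorescence meristem was near or under the background. The share called lower was near the background against the V5 shoot and above it against the vegetative meristem (5.83% and 1.93%). The panicle is the inflorescence itself. The 343 genes were chosen for panicles under the R shoot and the other raised genes for a high panicle. Nothing is therefore read from these shares, and the difference between the sets was not tested.

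Between the root and the V5 shoot, 63 of the 343 genes (18.4%) were higher in the root and 65 (19.0%) lower, beside 11.4% and 26.2% of the 11365 and 23.7% and 14.7% of the other raised genes. The counts turned with the scale, with 66 higher and 56 lower after rescaling and 45 higher and 77 lower with equal sums. Between the vegetative meristem and the lower leaf section, 66 (19.2%) were higher in the meristem and 19 (5.54%) lower, beside 19.4% and 13.6% of the 11365. Rescaling gave 56 higher and 31 lower.

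Not every pair of parts within leaf 3 was compared. Of the pairs compared, the tip and the lower section had the most calls. The same pair had the largest shares in both directions among the 11365 genes, so nothing is read from this order. In the tip against the lower section 20 genes (5.83%) were higher and 49 (14.3%) lower, beside 3.84% and 11.3% of the 11365, and 28 and 41 after rescaling. In the tip against the base 15 were higher and 12 lower, beside 2.35% and 3.45%, and 13 and 19 after rescaling. In the mid against the lower section 10 were higher and 1 lower, beside 1.22% and 0.387%. The coleoptile against the V3 shoot, which shares V3 with the rule, had 15 higher and 13 lower, beside 2.33% and 6.16%. In the post-anthesis against the pre-anthesis panicle, both of which the rule held under the R shoot, 11 were higher and 5 lower, beside 0.994% and 2.74%.

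**Figure D5:**
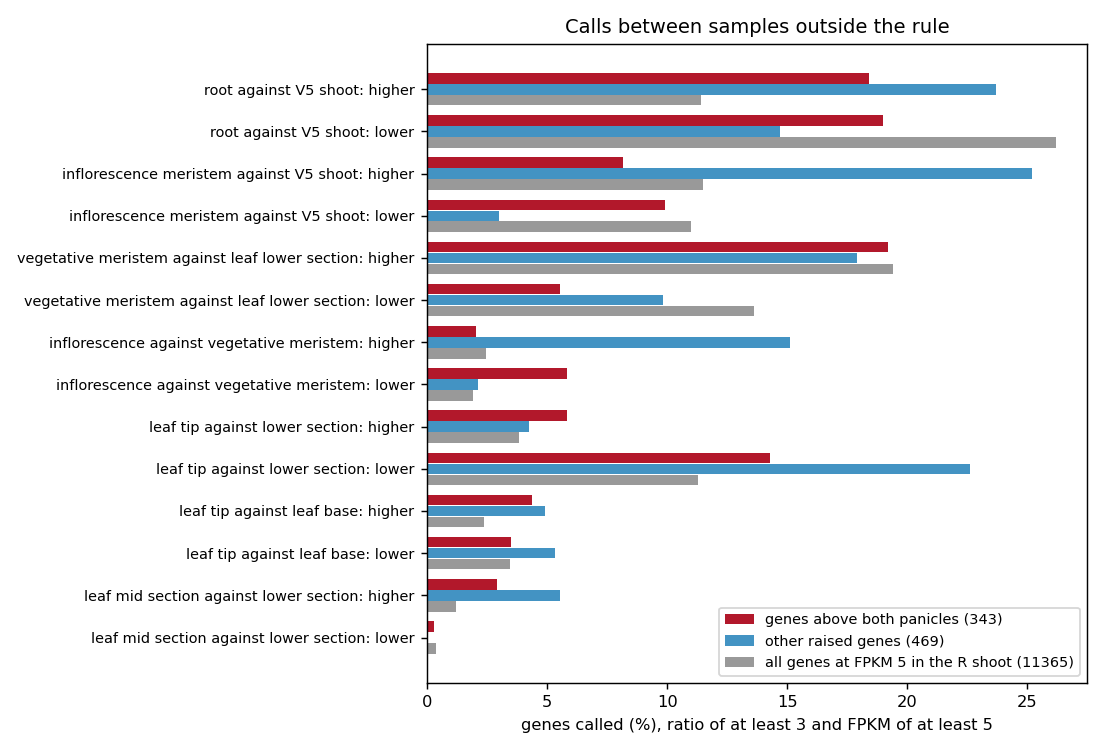
Share of genes called in each direction between samples outside the rule, for the 343 genes above both panicles, the 469 other raised genes and the 11365 genes at 5 FPKM or more in the R shoot. Bars start at 0 and a call needs a ratio of at least 3 and 5 FPKM or more in the higher sample. The widest gap is in the inflorescence meristem against the V5 shoot, with 8.16% of the 343 genes and 25.2% of the other raised genes called higher.

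At 1 FPKM or more in all 13 samples were 164 of the 343 genes (47.8%), against 77.6% of the 11365 genes. The rule itself held the V3 shoot and both panicles low. In the R shoot the medians of the 2 sets were 11.5 and 15.6 FPKM. Nothing is therefore read from the lower share. The leaf base and the root had the fewest of the 343 genes at that level (253 each, 73.8%), with 254 in the leaf tip. The V5 shoot had the most outside the R shoot (336, 98.0%). Among the 11365 genes the same samples stood at the ends. The root (86.4%) and the leaf base (92.6%) were lowest and the V5 shoot (99.6%) highest outside the R shoot.

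More than 1 transcript was listed for 68 of the 343 genes, and the transcript with the highest mean stood for the gene. Of the 107 other transcripts of these genes 94 were at 5 FPKM or more in the R shoot, 97 were at least 3 times the V3 shoot, 102 were above both panicles and 85 met all 3 conditions. Transcripts of a gene share sequence, so these values are not independent of each other.

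A start site offset, a signed number of nt per gene whose sign convention is not given in the sources used here, was listed for 64 of the 343 genes (18.7%). Among the 11365 genes at 5 FPKM or more in the R shoot the share was 35.5%, among the other raised genes 41.8% and among all genes 13.8%. Offsets were listed more often for abundant genes, so the shares were also taken by level in the R shoot. At 5 to 10 FPKM in the R shoot 10.8% of the 343 genes had an offset, against 15.3% of all genes at that level and 28.7% of the other raised genes. At 10 to 25 FPKM the shares were 17.8%, 28.2% and 34.8% in the same order, and at 25 or more 33.0%, 62.2% and 67.2%. At each level the 343 genes had the lowest share of the 3 sets. The R shoot level was used by the rule, and the sets were not matched in other samples. The 343 genes had a median of 2.86 FPKM in the V3 shoot, against 8.99 for the 11365. Their medians were 6.06 and 5.28 in the post- and pre-anthesis panicle, against 10.9 and 11.1. The other raised genes were chosen for a high panicle. Abundance is therefore not removed from these shares. The offsets of the 64 genes had a median of -10 nt, from -196 (Si023979m.g) to 282 (Si011366m.g), and 48 were negative. The medians were -5 nt with 56.8% negative among the 11365 genes and -9 nt with 69.4% negative among the other raised genes.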

How the data were processed

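Per the labels' protocols, polyadenylated RNA was converted with the SMARTer kit and read as paired ends of 100 nt on a HiSeq2000. STAR and DESeq2 are named in the submitters' processing notes, with no role. The sources used here name no genome build, annotation or way of merging replicates. The authors deposited log2 values per transcript with 2 decimals (0 to 16.6). They were read as log2(FPKM + 1), with base and added 1 inferred from the values. FPKM is 2 to the value, minus 1. Each gene was represented by its transcript of highest mean FPKM. FPKM is scaled to each sample's total, so a few abundant genes lower all others. None of the 35471 IDs matched the 34587 genes of the reference table (assembly Setaria_viridis_v4.0).

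Each sample was its own group, by title. Scaling alternatives were the median ratio over 9792 genes at 1 FPKM or more in all samples, and equal sums. Named are genes at the top of fixed rankings (level in the R shoot, log2 difference over V3 or over the higher panicle, level within a tissue group, restricted genes) and those at the thresholds. The genes and lists were chosen with earlier results of these data known. The rule and the rescaling were tested on simulated data, in which all samples had the V5 shoot profile apart from chosen genes changed in the R shoot. Such data check the computation and cannot show which scale is right for tissues that differ. Python 3.11.15, pandas 2.3.3, numpy 2.4.6 and matplotlib 3.10.9 were used.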

Additional observations from a re-analysis of the deposited data

How the results depend on the processing

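No paired analysis was possible because each sample has 1 column and no replicate number, and for the same reason no replicate could be left out. With median-ratio rescaling 48 genes met the rule, all among the 343, and with equal summed FPKM 562 did, with all 343 among them. Other thresholds gave 800 genes (at least 1 FPKM), 195 (at least 10), 2134 (2-fold over V3), 120 (4-fold), 171 (1 added to both values of the ratio), 192 (1.5 times both panicles) and 137 with the V5 shoot as baseline, of which 76 were among the 343. With the 343 genes held, rescaling gave 80 highest in the R shoot, 7 at least 3 times above every other sample and 79 in the meristem group, and a 2-fold limit gave 32 above every other sample. It gave 19 genes lower in the leaf tip than the base, 3 higher in the inflorescence than the vegetative meristem, 18 higher in the inflorescence meristem than the V5 shoot and 31 lower in the vegetative meristem than the lower leaf section.

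A call by a log2 difference of at least 2 in log2(FPKM + 1) gave fewer genes: 15 higher in the V5 than the V3 shoot, 9 higher and 7 lower in the leaf tip than the base, 6 higher and 0 lower in the mid than the lower section, 32 higher in the root than the V5 shoot, 0 higher and 11 lower in the inflorescence than the vegetative meristem, 7 higher in the coleoptile than the V3 shoot, 11 higher and 18 lower in the inflorescence meristem than the V5 shoot, 12 lower in the vegetative meristem than the lower section and 24 lower in the leaf tip than the lower section. The share of the 343 genes with an offset was 4.84 percentage points over that of all genes and -16.9 points relative to genes at 5 FPKM or more in the R shoot. The causes of these changes were not tested. Of 108 alternative values 77 stayed within 1.5 times the value as deposited, among them those with transcripts summed per gene. The comparisons of the inflorescence meristem with the V5 shoot, of the vegetative meristem and the leaf tip with the lower section, and the pattern of 17 genes were chosen after seeing the data. Unknown depth limits all values near 0.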
